A study of Mus musculus with 18 samples.

Results

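The question addressed was whether CD4 T cells from Gli2A Tg mice and from Gli2R Tg mice differed in their response to T cell receptor stimulation. The response difference was taken for each gene as stimulated minus resting Gli2A Tg cells, less stimulated minus resting Gli2R Tg cells. It rests on 12 of the 18 arrays of the series, 3 for each of stimulated Gli2A Tg, resting Gli2A Tg, stimulated Gli2R Tg and resting Gli2R Tg cells, chosen by sample title. The other 6 arrays, 3 of stimulated and 3 of resting wild-type (WT) cells, were part of no tested difference. They were normalised together with the 12, counted in the choice of each gene's probe set and helped estimate the spread. All mice were C57BL/6 and 9 to 15 weeks old, and the cells were splenic CD4 T cells isolated with magnetic beads. Stimulated cells had 6 h of culture in the presence of antibodies to CD3 and CD28, and resting cells were taken without culture, so stimulation and time in culture cannot be told apart. The labels give neither the promoter nor the construct of the transgenes, nor whether replicates came from separate mice, so p-values measure only the spread between these samples.

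Hedgehog signals reach the genome through Gli transcription factors, and Gli2A and Gli2R name activator and repressor forms of Gli2. Antibodies against CD3 and CD28 stand in for antigen and co-stimulation and switch on cytokine genes such as Il2, Ifng and Il4 within hours, along with genes of growth and glycolysis. Interferon response genes encode antiviral proteins and carry interferon-stimulated response elements in their promoters. The inducible Hsp70 genes Hspa1a and Hspa1b are transcribed under cell stress from promoters with heat shock elements.

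Microarray intensities were read on a normalised log2 scale for 18193 genes, each by its brightest probe set, and replicates of a group correlated at r = 0.971 to 0.981 across genes. Ptch1, which encodes the Hedgehog receptor and is a direct Gli target, was higher in Gli2A Tg than in Gli2R Tg cells in both conditions. The probe set of Gli2 itself lay low, at percentile 12.1 of mean level. Resting Gli2A Tg replicate 3 had the highest score on principal component 2 (55.4) and stimulated Gli2A Tg replicate 2 that on component 3 (51.0), and stimulated Gli2A Tg replicate 2 had an actin 3′ to 5′ ratio of 2.996, against at most 1.82 elsewhere. Stimulated Gli2R Tg replicates 1 and 3 had low Xist and high Y-linked Eif2s3y signal, a male pattern, and the other 10 arrays did not. Among the 12 arrays of both lines, the male pattern thus lay in stimulated Gli2R Tg cells alone. Sex is therefore partly confounded with the response difference. Of the WT arrays, 2 resting and 1 stimulated also had the male pattern.

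Both lines responded to stimulation on a similar scale. Stimulation changed 7812 genes in Gli2A Tg cells (42.9%), of which 3666 rose (20.2%) and 4146 fell (22.8%). In Gli2R Tg cells it changed 7703 (42.3%), of which 3604 rose (19.8%) and 4099 fell (22.5%), by limma with Benjamini-Hochberg adjusted p under 0.05. Of these, 6157 changed in the same direction in both lines, which was 78.8% of the Gli2A Tg calls and 79.9% of the Gli2R Tg calls, and 17 changed in opposite directions. Across genes, which are not independent replicates, the responses correlated at r = 0.881, and they share no arrays. The response difference itself passed for 20 genes (0.110% of those tested), 6 higher (0.0330%) and 14 lower (0.0770%) in Gli2A Tg cells. All 20 differed by more than 2-fold. The split was 9 higher and 9 lower with arrays centred on the median, and 8 higher and 7 lower with a pseudocount of 1. The number of calls ranged from 6, without stimulated Gli2A Tg replicate 2 or without stimulated Gli2R Tg replicate 1, to 34 without resting Gli2A Tg replicate 1, and was 7 without both resting Gli2A Tg replicate 3 and stimulated Gli2A Tg replicate 2. A response passed in 1 line only for 3167 genes, and the difference passed for 8 of these. The standard error of a response difference had a median of 0.38 on the log2 scale, against 0.27 for a single response, and 1935 genes (10.6%) were past an unadjusted p of 0.05.

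**Figure D1:**
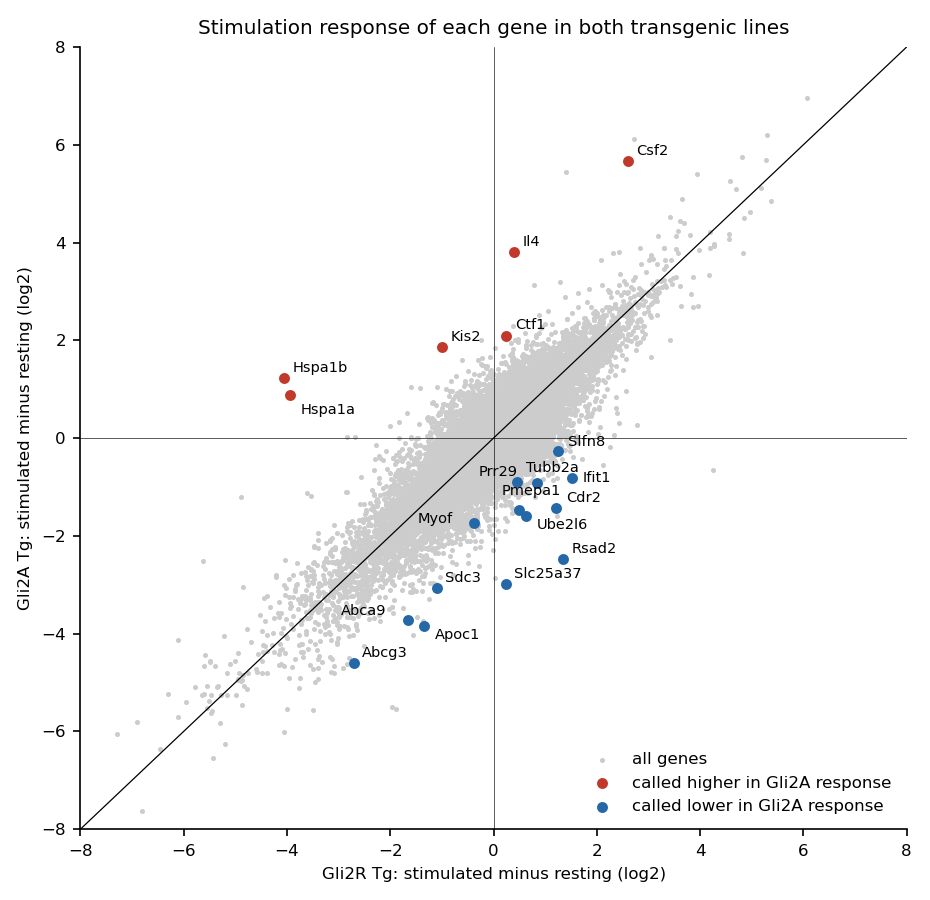
Stimulation response of each of 18193 genes, stimulated minus resting on the log2 scale, with Gli2A Tg cells on the vertical and Gli2R Tg cells on the horizontal axis; each point is a gene and the diagonal marks equal responses. Most genes lie along the diagonal, with the 6 genes called higher (red) above it and the 14 called lower (blue) below it.

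The 20 genes divided by where the lines differed. For all 14 genes with a lower response in Gli2A Tg cells, the lines differed more in resting than in stimulated cells, with higher levels in resting Gli2A Tg than in resting Gli2R Tg cells. The resting difference passed the test in all 14, while the stimulated difference passed in none. These genes were picked by the response difference, which is made of the stimulated and the resting difference. The counts are therefore no separate test of where the lines differed. Among the 6 genes with a higher response, Hspa1b, Hspa1a and Ctf1 were called lower in resting Gli2A Tg cells, Il4 and Kis2 were called higher in stimulated Gli2A Tg cells, and neither component passed for Csf2. Summed markers of myeloid and of erythroid and platelet cells were also higher in resting Gli2A Tg than in resting Gli2R Tg cells, and in bulk samples fewer cells of a type and less RNA per cell cannot be told apart. Over all genes, the resting comparison of Gli2A Tg with Gli2R Tg cells called 436 (2.40%), 285 higher (1.57%) and 151 lower (0.830%). The stimulated comparison called 42 (0.231%), 36 higher (0.198%) and 6 lower (0.0330%). The responses were opposite in sign in 12 of the 20 genes and were called in opposite directions in 7: Hspa1b, Kis2, Rsad2, Cdr2, Ifit1, Prr29 and Tubb2a.

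**Figure D2:**
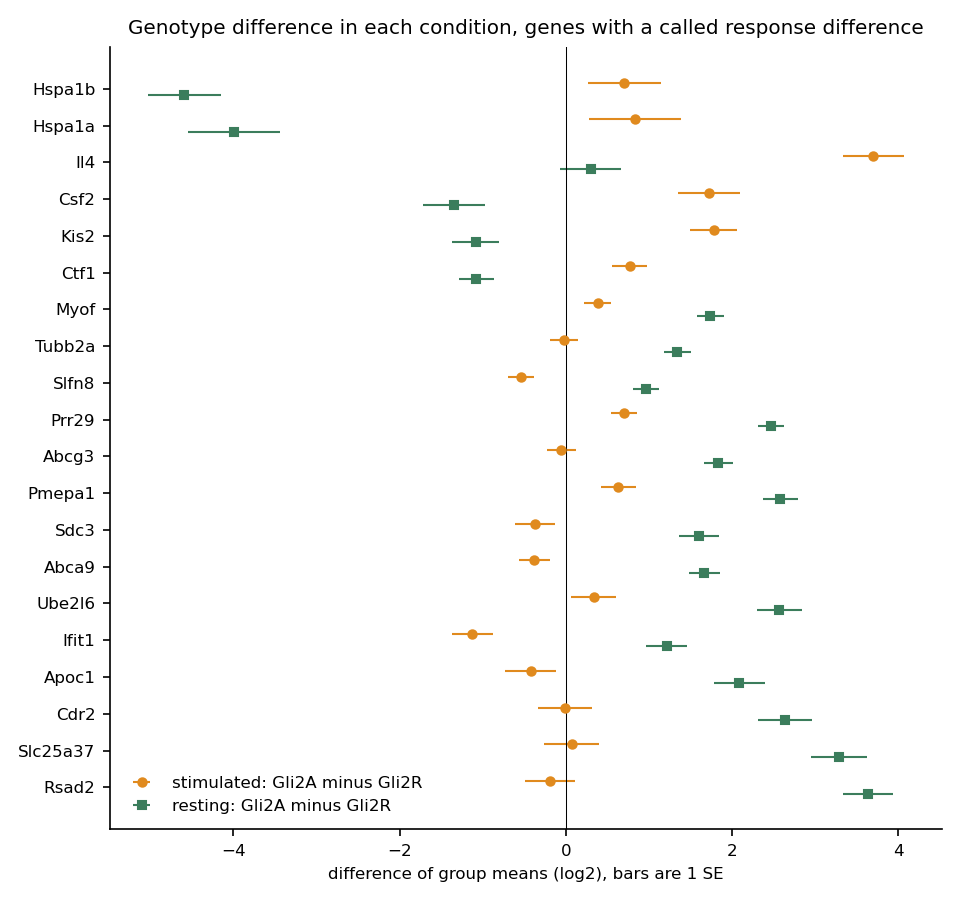
Difference between Gli2A Tg and Gli2R Tg cells on the log2 scale (horizontal axis, bars are 1 SE) for the 20 genes with a called response difference, in stimulated cells (orange circles) and resting cells (green squares); 3 arrays per group. For the 14 lower genes, from Myof down, the resting difference lies above 0 and to the right of the stimulated one.

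Antiviral genes of the interferon response were among the lower responses. Rsad2, which encodes the antiviral enzyme viperin, Ifit1, which encodes a sensor of foreign RNA, and Slfn8, a Schlafen family gene, had lower responses in Gli2A Tg cells, as did Ube2l6, whose product conjugates the ubiquitin-like protein Isg15. The promoters of Rsad2 (GRCm38.p6, chr12:26456403-26456702, minus strand), Ifit1 (chr19:34640639-34640938, plus strand) and Slfn8 (chr11:83020761-83021060, minus strand) are shown because each holds the core of an interferon-stimulated response element, searched on both strands as TTTC, any 2 bases, then TTTC again. They are RefSeq windows of 250 bases before to 50 after the annotated start, and the matches are in capitals.
Rsad2: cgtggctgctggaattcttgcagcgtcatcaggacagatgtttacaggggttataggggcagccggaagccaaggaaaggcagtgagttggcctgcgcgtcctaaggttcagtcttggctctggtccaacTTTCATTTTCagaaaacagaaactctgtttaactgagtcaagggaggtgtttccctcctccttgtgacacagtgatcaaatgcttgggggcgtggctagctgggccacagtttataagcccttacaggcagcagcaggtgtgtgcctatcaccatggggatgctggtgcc
Ifit1: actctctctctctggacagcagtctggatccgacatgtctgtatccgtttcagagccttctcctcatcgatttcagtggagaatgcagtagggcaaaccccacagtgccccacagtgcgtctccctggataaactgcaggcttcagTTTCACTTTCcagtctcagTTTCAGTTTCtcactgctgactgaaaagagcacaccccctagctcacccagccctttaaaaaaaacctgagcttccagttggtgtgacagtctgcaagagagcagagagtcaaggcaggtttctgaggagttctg
Slfn8: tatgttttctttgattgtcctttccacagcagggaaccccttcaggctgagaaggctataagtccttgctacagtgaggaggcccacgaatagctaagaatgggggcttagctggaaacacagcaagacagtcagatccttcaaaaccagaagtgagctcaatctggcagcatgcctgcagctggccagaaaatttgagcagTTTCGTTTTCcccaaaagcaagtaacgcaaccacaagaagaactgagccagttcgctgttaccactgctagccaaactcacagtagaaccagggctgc
The matches began 120 bases before the start in Rsad2, 104 and 85 before it in Ifit1 and 48 before it in Slfn8. Promoters were found for 17 of the 20 genes, and 4 held this motif in a window, the fourth being Il4. It was in a window of 3.99% of 27025 genes and of 12 of the 20 interferon list genes with a promoter. The Gli consensus GACCACCCA was in none of the 17, against 0.289% of genes.

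Rsad2 had log2 levels of 11.17, 11.07 and 11.19 in stimulated Gli2A Tg cells and 13.06, 13.31 and 14.50 in resting Gli2A Tg cells. Its levels were 11.31, 11.27 and 11.42 in stimulated Gli2R Tg cells and 10.36, 9.77 and 9.80 in resting Gli2R Tg cells. All 3 resting Gli2A Tg arrays were above every other array of both lines and all 3 resting Gli2R Tg arrays below, with stimulated cells of both lines between them. With stimulation Rsad2 fell in Gli2A Tg cells (-2.48 ± 0.30, SE, limma adjusted p = 7.4e-06) and rose in Gli2R Tg cells (1.35 ± 0.30, adjusted p = 0.0018). The response difference was -3.83 ± 0.43 (limma adjusted p = 0.00438), a 14.2-fold ratio between the stimulated-to-resting folds of the lines. It kept its call in 12 of 12 fits that each left out 1 array, and the other probe sets of Rsad2 gave -3.60 and -3.12. WT means were 11.81 in stimulated and 11.66 in resting WT cells.

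Ifit1 measured 10.14, 9.71 and 9.88 in stimulated Gli2A Tg cells and 10.84, 10.39 and 10.95 in resting Gli2A Tg cells. In Gli2R Tg cells it measured 11.29, 10.85 and 10.97 when stimulated and 9.56, 9.64 and 9.33 at rest. The lines did not overlap in either condition, and their order was opposite: Gli2A Tg was lower when stimulated and higher at rest. The responses differed by -2.34 ± 0.35 (limma adjusted p = 0.0186), from -0.81 ± 0.25 in Gli2A Tg cells, and 1.52 ± 0.25 in Gli2R Tg cells. Leaving out resting Gli2A Tg replicate 3 (0.0546), stimulated Gli2A Tg replicate 2 (0.0743), resting Gli2R Tg replicate 2 (0.0503) or stimulated Gli2R Tg replicate 1 (0.0653) ended the call (adjusted p in brackets).

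Slfn8 also crossed over, with 10.28, 10.07 and 10.29 in stimulated Gli2A Tg cells, against 10.86, 10.77 and 10.64 in stimulated Gli2R Tg cells, and at rest 10.44, 10.69 and 10.29 in Gli2A Tg against 9.41, 9.36 and 9.75 in Gli2R Tg cells. Its responses differed by -1.50 ± 0.22 (limma adjusted p = 0.0155), and leaving out stimulated Gli2A Tg replicate 2 (0.0609), resting Gli2R Tg replicate 2 (0.0515) or stimulated Gli2R Tg replicate 1 (0.0528) ended the call. Ube2l6 had 9.51, 9.30 and 10.38 in resting Gli2A Tg cells, against 7.13, 6.89 and 7.45 in resting Gli2R Tg cells, without overlap. The lines' responses differed by -2.23 ± 0.39 (limma adjusted p = 0.0397), and the call held in 4 of 12 fits that left out 1 array.

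Of 27 measured genes of the interferon response list, 2 passed lower (Rsad2 and Ifit1), where 0.0770% of all genes did, and none higher. Another 11 were past an unadjusted p of 0.05 downward, 13 in all of 27, where 5.14% of all genes were. The response difference lay below 0 in 24 of the 27, with a median of -0.77 where all genes had a median of 0.00. The median response was -0.34 in Gli2A Tg cells, with 4 genes risen and 8 fallen, and 0.76 in Gli2R Tg cells, with 15 risen and 3 fallen. Of all genes, 20.2% rose and 22.8% fell in Gli2A Tg cells, and 19.8% rose and 22.5% fell in Gli2R Tg cells. Resting Gli2A Tg cells exceeded resting Gli2R Tg cells by a median of 0.37, with 6 genes called higher, where 1.57% of all genes were. Ifit3, a partner of Ifit1, missed the threshold (-1.93 ± 0.41, limma adjusted p = 0.0929), as did Irf8, an interferon-inducible transcription factor from another list (-1.26 ± 0.28, adjusted p = 0.11). Both passed with a variance trend and robust fit (0.0225 each), with genes above the median level alone (0.0304 for Ifit3 and 0.0322 for Irf8) and with a pseudocount of 64 (0.0402 and 0.0469). The 3 members above 0, named after their values were seen, were Stat2 (0.50), Bst2 (0.07) and Trim30a (0.04). Slfn8 and Ube2l6 are not on the list.

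**Figure D3:**
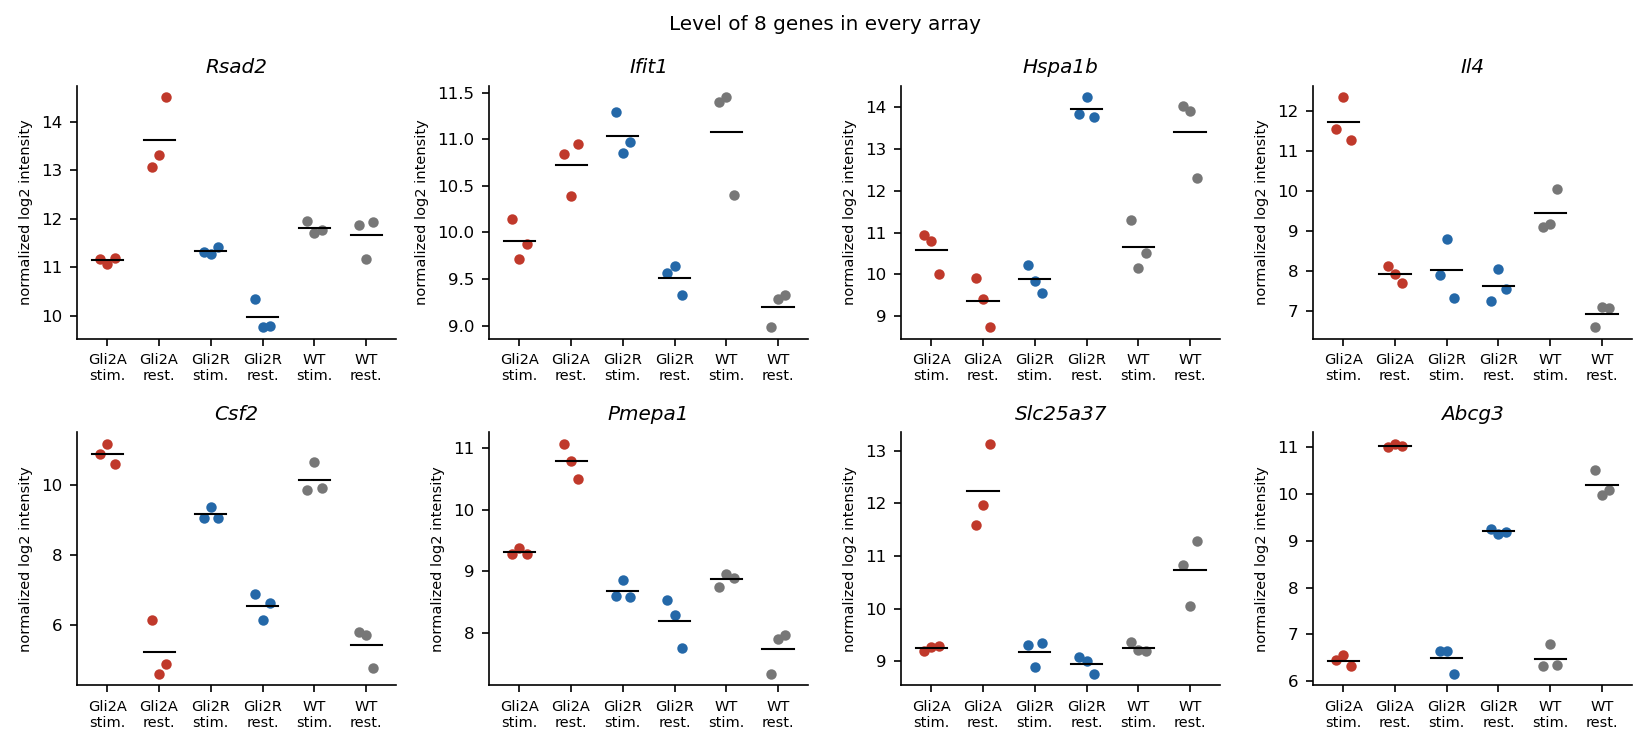
Normalised log2 intensity (vertical axes, each panel with its own range) of 8 genes in every array, grouped along the horizontal axis by line and condition; points are arrays and bars are means of 3. Rsad2, Pmepa1, Slc25a37 and Abcg3 differ between the lines mainly at rest, Il4 mainly after stimulation, and Ifit1 changes its order between the conditions.

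Among the 20 called genes, the inducible Hsp70 chaperone genes had the largest response differences. Hspa1b had log2 levels of 10.93, 10.80 and 10.02 in stimulated Gli2A Tg cells and 9.92, 9.40 and 8.74 in resting Gli2A Tg cells. Levels were 10.23, 9.85 and 9.57 in stimulated Gli2R Tg cells and 13.84, 14.23 and 13.77 in resting Gli2R Tg cells. Resting Gli2R Tg cells were above all other arrays of both lines, and stimulated cells of both lines overlapped. Hspa1b rose by 1.23 ± 0.44 on the log2 scale in Gli2A Tg cells and fell by 4.06 in Gli2R Tg cells. The response difference was 5.29 ± 0.62 (limma adjusted p = 0.00438), a 39.2-fold ratio of the responses, and was called in all 12 fits that left out 1 array. Its other probe sets gave 6.27 and 6.32. Hspa1a gave 4.83 ± 0.78 (limma adjusted p = 0.0284), with 8.21, 7.77 and 7.41 in resting Gli2A Tg cells, against 11.49, 12.41 and 11.47 in resting Gli2R Tg cells. Leaving out any of 8 arrays ended the Hspa1a call, at adjusted p up to 0.104. These genes are near-identical copies, so a probe set of one may read the other. Resting WT cells had Hspa1b at 14.02, 13.91 and 12.31.

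The promoters of Hspa1b (GRCm38.p6, chr17:34959189-34959488, minus strand) and Hspa1a (chr17:34972107-34972406, minus strand) are shown because they alone among the 17 hold GAANNTTC, a unit of the heat shock element, here in capitals. It was searched on both strands and lies in a promoter window of 9.04% of genes.
Hspa1b: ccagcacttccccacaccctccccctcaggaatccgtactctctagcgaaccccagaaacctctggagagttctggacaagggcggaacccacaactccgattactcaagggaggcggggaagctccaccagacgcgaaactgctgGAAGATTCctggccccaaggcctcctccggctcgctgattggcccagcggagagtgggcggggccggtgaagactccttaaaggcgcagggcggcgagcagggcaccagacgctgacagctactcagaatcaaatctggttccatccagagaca
Hspa1a: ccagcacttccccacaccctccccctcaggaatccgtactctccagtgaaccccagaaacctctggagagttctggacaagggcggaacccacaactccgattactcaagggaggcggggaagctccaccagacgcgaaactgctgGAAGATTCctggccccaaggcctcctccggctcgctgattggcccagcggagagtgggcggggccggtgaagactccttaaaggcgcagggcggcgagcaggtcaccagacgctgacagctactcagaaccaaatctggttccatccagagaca
The match begins 104 bases before the start in both, and the windows are identical at 296 of 300 positions.

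Of the 17 measured genes of the heat shock list 2 passed higher, these 2, where 0.0330% of all genes did, and 10 lay below 0. At an unadjusted p of 0.05, 4 were higher, where 5.49% of all genes were, and 2 lower, where 5.14% were. Hsp90b1, an endoplasmic reticulum chaperone, gave -0.76 and did not pass, and its other probe set gave 0.47. Among 23 activation-induced transcription factors, no response difference passed. In resting Gli2A Tg cells 4 were called lower and 1 higher than in resting Gli2R Tg cells, where 0.830% and 1.57% of all genes were. Fos, a subunit of the AP-1 transcription factor, had 13.78, 11.36 and 11.46 in resting Gli2A Tg cells, against 14.65, 14.71 and 14.61 in resting Gli2R Tg cells. Dusp1, a phosphatase that switches off MAP kinases, had 12.94, 10.70 and 10.56 in resting Gli2A Tg cells, against 14.50, 14.47 and 14.11 in resting Gli2R Tg cells. Resting WT cells had Fos at 14.40, 14.46 and 13.75. In both genes resting Gli2A Tg replicate 1 was the highest of its group, and no resting Gli2A Tg array reached the resting Gli2R Tg arrays. The response differences were 2.49 ± 0.66 for Fos (limma adjusted p = 0.176) and 2.87 ± 0.71 for Dusp1 (adjusted p = 0.149), and neither passed. Without resting Gli2A Tg replicate 1 they were 3.28 (adjusted p = 0.00113) and 3.64 (adjusted p = 0.0057). Jun (3.11 ± 1.00), Junb (2.65 ± 0.69) and Zfp36, which promotes decay of cytokine mRNA (1.69 ± 0.45), did not pass at adjusted p of 0.27, 0.174 and 0.177.

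Il4, Csf2 and Ctf1, which encode cytokines, were among the 6 higher responses. Il4, the cytokine of T helper 2 cells, had 11.54, 12.33 and 11.28 in stimulated Gli2A Tg cells, against 7.91, 8.81 and 7.33 in stimulated Gli2R Tg cells. At rest it had 8.14, 7.93 and 7.69 in Gli2A Tg cells, and 7.26, 8.04 and 7.56 in Gli2R Tg cells. The lines did not overlap when stimulated and overlapped at rest. Il4 rose 13.9-fold in Gli2A Tg cells (3.80 ± 0.37, limma adjusted p = 7.51e-07) and did not pass in Gli2R Tg cells (0.40 ± 0.37, adjusted p = 0.434). A response difference of 3.40 ± 0.52 resulted (adjusted p = 0.019), and leaving out resting Gli2A Tg replicate 2 (0.0529), resting Gli2A Tg replicate 3 (0.0546), stimulated Gli2A Tg replicate 2 (0.0727), resting Gli2R Tg replicate 2 (0.0705) or stimulated Gli2R Tg replicate 1 (0.0653) ended the call. WT means were 9.44 in stimulated and 6.92 in resting WT cells.

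Csf2 encodes GM-CSF, a growth factor for myeloid cells. It measured 10.88, 11.18 and 10.62 in stimulated Gli2A Tg cells and 6.15, 4.62 and 4.90 in resting Gli2A Tg cells. In Gli2R Tg cells it measured 9.06, 9.37 and 9.07 when stimulated and 6.89, 6.16 and 6.64 at rest. Stimulated Gli2A Tg arrays were all above, and resting Gli2A Tg arrays all below, the Gli2R Tg arrays of the same condition. Csf2 rose in both lines, and the response difference was 3.07 ± 0.53 (limma adjusted p = 0.0397). Resting Gli2A Tg levels were close to the floor that the pseudocount of 16 sets, and the difference was 3.74 (adjusted p = 0.12) with a pseudocount of 1 and 2.36, still called, with 64. The call held in 1 of 12 fits that left out 1 array, the one without resting Gli2A Tg replicate 1, and the highest adjusted p was 0.121. Ctf1, which encodes the interleukin-6 family cytokine cardiotrophin, had 5.16, 5.13 and 5.16 in resting Gli2A Tg cells, against 6.49, 5.93 and 6.27 in resting Gli2R Tg cells. Its responses differed by 1.84 ± 0.30 (adjusted p = 0.0284), and 3 of the 12 fits kept the call. With a pseudocount of 64 it was 1.10.

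Other cytokine genes with large response differences did not pass. Ifng, the signature cytokine of T helper 1 cells, had 13.02, 12.23 and 12.97 in stimulated Gli2A Tg cells, against 12.38, 12.49 and 11.36 in stimulated Gli2R Tg cells. At rest it had 6.07, 6.51 and 7.25 in Gli2A Tg cells, and 9.72, 9.77 and 8.56 in Gli2R Tg cells, without overlap. Its response difference was 3.40 ± 0.67 (limma adjusted p = 0.0793), and 3.80 (adjusted p = 0.0469) without resting Gli2R Tg replicate 3. Ifng also passed with array weights (0.0258), a variance trend and robust fit (0.0433), genes above the median level alone (0.0242) and a pseudocount of 64 (0.0345). Il21, which acts on B cells, gave 4.05 ± 0.93 (adjusted p = 0.119). Its resting Gli2R Tg arrays were 9.49, 9.71 and 6.41, and without replicate 3 it gave 5.11 (adjusted p = 0.0021). It passed too with array weights (0.0425) and genes above the median level alone (0.0411). A second Il21 probe set gave 1.20. Il2 rose 125-fold in Gli2A Tg cells, and 67.5-fold in Gli2R Tg cells, a response difference of 0.89 ± 0.31 that did not pass (adjusted p = 0.312), although the stimulated arrays did not overlap (13.54, 13.45 and 13.06 in stimulated Gli2A Tg cells, against 12.48, 12.70 and 12.41 in stimulated Gli2R Tg cells). Tnf gave 1.37 ± 0.42 (adjusted p = 0.247).

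The Gli target list held 1 call. Pmepa1, an inhibitor of TGF-beta signalling on the Gli target list, had 9.27, 9.39 and 9.28 in stimulated Gli2A Tg cells and 11.06, 10.79 and 10.49 in resting Gli2A Tg cells. In Gli2R Tg cells it had 8.60, 8.86 and 8.58 when stimulated and 8.53, 8.30 and 7.76 at rest. Gli2A Tg cells were above Gli2R Tg cells in both conditions without overlap, by 2.58 ± 0.21 at rest (limma adjusted p = 2e-05) and 0.63 ± 0.21 when stimulated (adjusted p = 0.307). Between responses the difference was -1.95 ± 0.30 (adjusted p = 0.0186), and its other probe sets gave -1.54 and -2.19. Leaving out resting Gli2A Tg replicate 2 (0.0512), stimulated Gli2A Tg replicate 1 (0.0591), stimulated Gli2A Tg replicate 2 (0.0609), resting Gli2R Tg replicate 2 (0.0509), stimulated Gli2R Tg replicate 1 (0.0528) or stimulated Gli2R Tg replicate 2 (0.0516) ended the call, as did centring arrays on the median (-1.63, adjusted p = 0.105). WT means were 8.87 in stimulated and 7.74 in resting WT cells.

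Ptch1 was higher in Gli2A Tg cells by 2.18 ± 0.16 when stimulated (limma adjusted p = 1.34e-05) and by 3.09 ± 0.16 at rest (adjusted p = 1.05e-07). It measured 12.05, 12.27 and 12.48 in stimulated Gli2A Tg cells and 13.59, 13.60 and 13.28 in resting Gli2A Tg cells. In Gli2R Tg cells it stayed between 9.96 and 10.60 in all 6 arrays. Stimulation lowered Ptch1 in Gli2A Tg cells (-1.22 ± 0.16, adjusted p = 1.13e-05) and did not pass in Gli2R Tg cells (-0.31 ± 0.16), but the response difference, -0.91 ± 0.22, missed the threshold (adjusted p = 0.138), and its other probe sets gave -0.46 and 0.07. It passed with genes above the median level alone (0.0411) and with a variance trend and robust fit (0.0382). Gli1 (0.56 ± 0.44, adjusted p = 0.708) and Gli2 (-0.62 ± 0.57, adjusted p = 0.756) did not pass. Of 17 measured Gli target genes 1 passed lower, where 0.0770% of all genes did, and 8 lay above 0 and 9 below. At an unadjusted p of 0.05, 3 of the 17 were higher and 3 lower, where 5.49% and 5.14% of all genes were. Of 21 pathway components 0 passed with limma. At an unadjusted p of 0.05, 1 of these components was higher and 2 lower, where 5.49% and 5.14% of all genes were. Bcl2, which inhibits apoptosis, gave 1.01 ± 0.28 (adjusted p = 0.199), and Ccnd1, a cyclin, -1.38 ± 0.48 (adjusted p = 0.309).

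The remaining lower responses included genes of iron handling, lipid transport and the cytoskeleton. Slc25a37, the mitochondrial iron importer mitoferrin of red cell precursors, had 11.60, 11.98 and 13.13 in resting Gli2A Tg cells, against 9.07, 9.00 and 8.76 in resting Gli2R Tg cells. Stimulated levels were 9.20, 9.26 and 9.29 in Gli2A Tg cells, and 9.31, 8.89 and 9.34 in Gli2R Tg cells, and these overlapped. The response difference was -3.22 ± 0.47 (limma adjusted p = 0.0155), and leaving out stimulated Gli2A Tg replicate 2 (0.0609), resting Gli2R Tg replicate 2 (0.0503) or stimulated Gli2R Tg replicate 1 (0.0528) ended the call. Apoc1, an apolipoprotein made by macrophages, had 10.19, 9.84 and 9.42 in resting Gli2A Tg cells, against 7.36, 7.90 and 7.92 in resting Gli2R Tg cells. For Apoc1 the response difference was -2.51 ± 0.44 (adjusted p = 0.0399), and none of the 12 fits without 1 array kept the call (adjusted p from 0.0522 to 0.124). Sdc3, a cell surface heparan sulfate proteoglycan, had 11.54, 12.14 and 11.85 in resting Gli2A Tg cells, against 10.27, 10.27 and 10.19 in resting Gli2R Tg cells. Its response difference was -1.97 ± 0.34 (adjusted p = 0.0397), which 1 of 12 such fits kept, and was -1.25 as the mean of its probe sets. None of these 3 genes overlapped between the resting groups, but they were picked by a difference that contains the resting one. The lack of overlap is thus no separate support, and its share over all genes is not given here.

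Abcg3 and Abca9 belong to the ABC transporter family. Abcg3 had 11.01, 11.07 and 11.03 in resting Gli2A Tg cells, against 9.25, 9.15 and 9.20 in resting Gli2R Tg cells, and after stimulation lay between 6.16 and 6.65 in all 6 arrays. It fell in both lines, by 4.60 in Gli2A Tg cells, and by 2.71 in Gli2R Tg cells on the log2 scale, with a response difference of -1.89 ± 0.25 (limma adjusted p = 0.00707). Abca9 had 8.46, 8.21 and 8.38 in resting Gli2A Tg cells, against 6.61, 6.80 and 6.62 in resting Gli2R Tg cells. For Abca9 the response difference was -2.05 ± 0.26 (adjusted p = 0.00707), but its dimmer probe set gave -0.07 and the mean of both -1.06 (adjusted p = 0.271). With a pseudocount of 1 the Abca9 call was lost (adjusted p = 0.0864). Both kept their calls in all 12 fits that left out 1 array.

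Prr29, a proline-rich protein gene, was higher in Gli2A Tg cells in both conditions without overlap. It had 7.10, 7.28 and 6.92 in stimulated Gli2A Tg cells and 8.12, 7.80 and 8.10 in resting Gli2A Tg cells. In Gli2R Tg cells it had 6.50, 6.28 and 6.39 when stimulated and 5.56, 5.34 and 5.72 at rest. Its response difference was -1.76 ± 0.22 (limma adjusted p = 0.00707), and every fit without 1 array called it.

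Cdr2, which encodes a neuronal tumour antigen, had 10.42, 10.38 and 11.96 in resting Gli2A Tg cells, against 8.48, 7.96 and 8.42 in resting Gli2R Tg cells. Myof, which encodes the membrane repair protein myoferlin, had 6.72, 6.97 and 6.71 in resting Gli2A Tg cells, against 5.25, 4.92 and 5.02 in resting Gli2R Tg cells. Tubb2a, a beta-tubulin gene, lay between 11.76 and 12.25 in resting Gli2A Tg cells, against 10.87, 10.62 and 10.49 in resting Gli2R Tg cells. None of the 3 overlapped between the resting groups, which is again no separate support, as the response difference that picked them contains the resting one. Their response differences were -2.64 ± 0.46 for Cdr2, -1.36 ± 0.23 for Myof and -1.36 ± 0.23 for Tubb2a, with a limma adjusted p of 0.0397 each. Of the 12 fits without 1 array, 3 kept the call of Cdr2, 2 that of Myof and 2 that of Tubb2a. The second probe set of Myof gave -0.30. Myof was dim, with means of 5.07 in Gli2A Tg cells, and 4.68 in Gli2R Tg cells, when stimulated, and its value moved with the pseudocount, to -1.60 (adjusted p = 0.156) with 1 and -0.82 with 64.

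Kis2, a long non-coding RNA gene on the X chromosome, was the remaining higher response, with 6.61, 6.22 and 6.22 in stimulated Gli2A Tg cells, against 4.72, 4.44 and 4.55 in stimulated Gli2R Tg cells. At rest it had 4.81, 4.30 and 4.34 in Gli2A Tg cells, and 5.65, 5.84 and 5.22 in Gli2R Tg cells, so the order of the lines was opposite. Its response difference was 2.87 ± 0.40 (limma adjusted p = 0.0117) and was called in all 12 fits without 1 array. Its mean level was low, at percentile 19 of all genes, and the value moved with the pseudocount, to 5.20 with 1 and 1.30 with 64.

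Of the 20 calls, 11 held with the 12 arrays alone, 12 with a pseudocount of 1, 15 with arrays centred on the median and 15 with the mean of probe sets. Rsad2 and Hspa1b kept theirs under all 26 alternatives, and Prr29 under the 25 that tested it. With the sex pattern of all 18 arrays, WT included, as a covariate, 10 of the 20 kept their calls. Il4 (3.003, limma adjusted p = 0.0578) and Ifit1 (-2.20, adjusted p = 0.0649) were among those that did not.

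Summed markers of several other cell types were higher in resting Gli2A Tg than in resting Gli2R Tg cells. Summed intensity of the 11 measured of 15 erythroid and platelet markers was 21782 to 49781 in resting Gli2A Tg cells, against 4076 to 7698 in resting Gli2R Tg cells. In stimulated cells it was 2436 to 4395 in Gli2A Tg cells, and 1166 to 2498 in Gli2R Tg cells. The sum over 18 of 19 myeloid markers was 167346 to 183314 in resting Gli2A Tg and 74983 to 92724 in resting Gli2R Tg cells, and with stimulation 2780 to 6929 in Gli2A Tg cells, and 1605 to 2302 in Gli2R Tg cells. Groups did not overlap in these sums, except the erythroid sums of stimulated cells, and no marker was listed at 0. Gene by gene, myeloid markers were higher in Gli2A Tg cells by a median of 1.10 in both conditions. Their response difference had a median of 0.06, with 11 of 18 above 0. Erythroid and platelet markers were higher by a median of 0.36 when stimulated and 1.11 at rest. Their response difference had a median of -0.48, with 8 of 11 below 0.

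B cell, dendritic cell and granulocyte marker sums were also higher in resting Gli2A Tg than in resting Gli2R Tg cells without overlap. Gene by gene, these lists were higher at rest by medians of 0.25, 0.52 and 0.75, and none of their genes was called higher at rest. CD8 T and NK cell marker sums overlapped at rest, with 8274 to 9888 in Gli2A Tg and 7873 to 11349 in Gli2R Tg cells. Among markers of the labelled cells, Cd4 averaged 10.20 in stimulated and 11.28 in resting Gli2A Tg cells, and 10.07 in stimulated and 11.39 in resting Gli2R Tg cells on the log2 scale. Cd3e, a chain of the T cell receptor complex, averaged 10.41 and 13.36 in Gli2A Tg cells, and 10.60 and 13.29 in Gli2R Tg cells, in the same order. The sum of 8 of 11 CD4 T cell markers was 68791 to 90216 in resting Gli2A Tg and 92552 to 99116 in resting Gli2R Tg cells. No marker list held a called response difference (limma). At an unadjusted p of 0.05, 2 of 11 erythroid and 2 of 18 myeloid markers were lower, where 5.14% of all genes were. Among erythroid markers, Alas2, the first enzyme of haem synthesis in red cell precursors (-3.67 ± 0.83, limma adjusted p = 0.113), and Slc4a1, the red cell anion exchanger (-3.54 ± 1.22, adjusted p = 0.309), did not pass, although Alas2 did with genes above the median level alone (0.0379) and with a pseudocount of 64 (0.0402). Of the 11, 7 fell with stimulation in Gli2A Tg cells and 5 in Gli2R Tg cells, where 22.8% and 22.5% of all genes fell. With the mean levels of the myeloid and erythroid lists as covariates, all 20 genes kept their sign and 7 their calls: Rsad2 (-3.57), Ifit1 (-2.74), Slfn8 (-1.60), Hspa1b (4.59), Prr29 (-1.92), Abcg3 (-2.12) and Apoc1 (-3.01). Il4 gave 3.23 (adjusted p = 0.175) and Slc25a37 -2.99 (adjusted p = 0.13) in that fit. The covariates also took up the stimulation responses themselves, of which 0 passed with limma in either line (1952 in Gli2A Tg cells, and 1950 in Gli2R Tg cells at an unadjusted p of 0.05). The part of the other cells in the 20 differences was otherwise not tested.

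**Figure D4:**
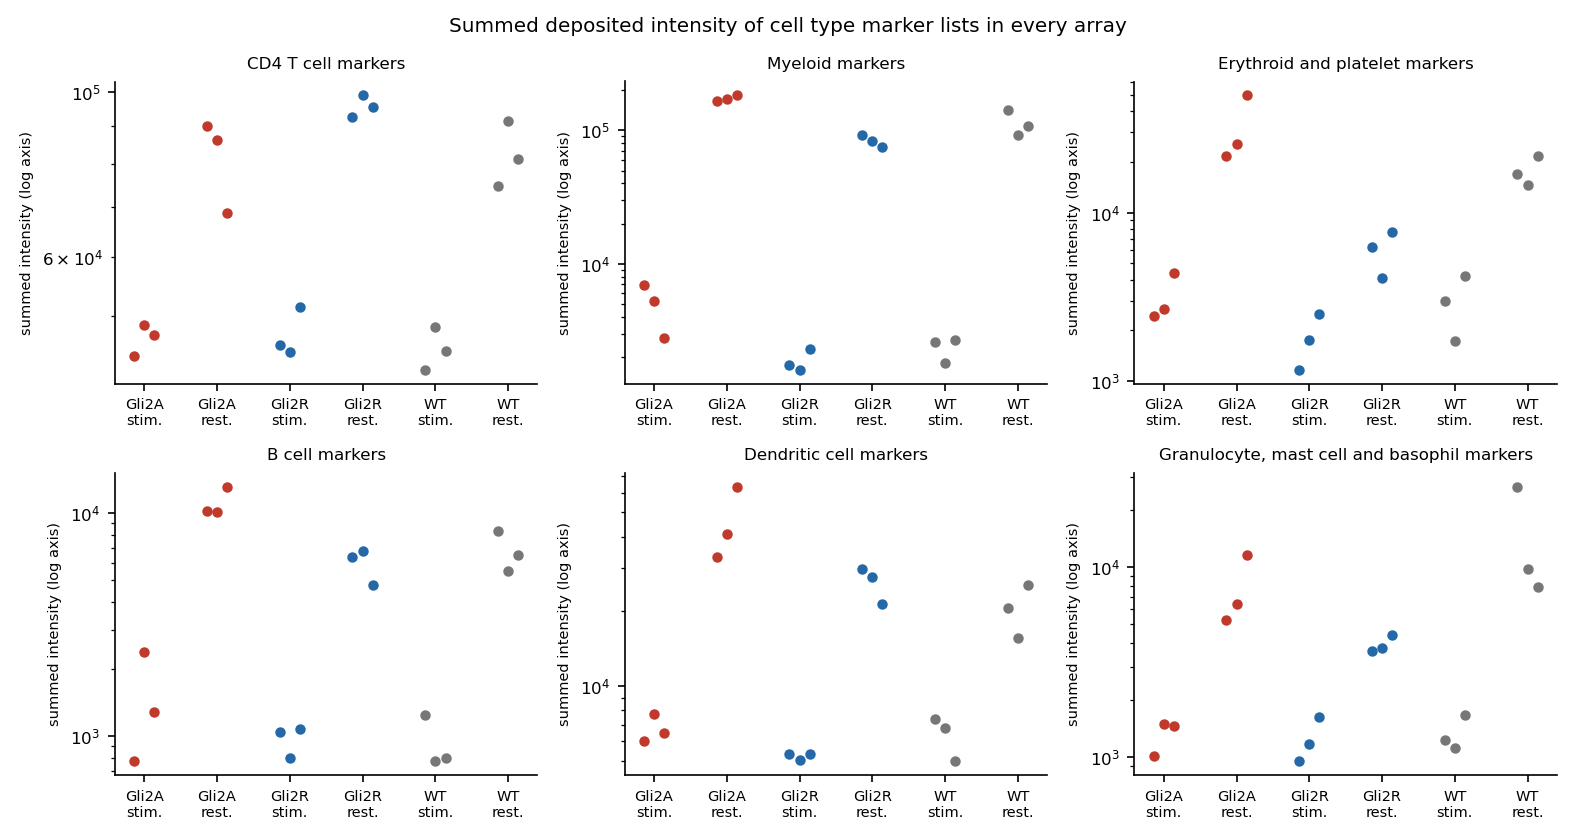
Summed deposited intensity (log axes, each panel with its own range) of 6 lists of cell type markers in every array, grouped by line and condition along the horizontal axis; points are arrays. In resting cells the myeloid and the erythroid and platelet sums of Gli2A Tg arrays lie above those of Gli2R Tg arrays, and stimulated arrays lie lower in both lines.

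Of 18 glycolysis and hypoxia genes, 14 had a response difference above 0 and 9 were past an unadjusted p of 0.05 upward, where 5.49% of all genes were, but none passed the adjusted test. Their median was 0.70, with median responses of 2.63 in Gli2A Tg cells, and 2.07 in Gli2R Tg cells. The glucose transporter Slc2a3 gave 1.29 ± 0.30 (limma adjusted p = 0.12) and the oxygen sensor Egln3 1.46 ± 0.46 (adjusted p = 0.261), and neither passed. Slc2a3 passed with a variance trend and robust fit (0.0244), genes above the median level alone (0.0383) and without stimulated Gli2A Tg replicate 3 (0.0403). The median difference between the lines was 0.33 in stimulated cells and -0.09 at rest.

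Of 17 T helper 2 genes 1 passed higher (Il4), where 0.0330% of all genes did, and 12 lay above 0. The median of the T helper 2 genes was 0.59, 0.30 to 0.68 without 1 array, lowest without stimulated Gli2R Tg replicate 3. T helper 1 genes had a median of -0.01, 8 of 17 above 0. The 20 activation markers had a median of 0.48 and 1 call, Csf2, which was higher, where 0.0330% of all genes were called higher. Without resting Gli2R Tg replicate 2 that median was 0.23, and without replicate 3 it was 0.79. Cd69, an early marker (1.47 ± 0.46, adjusted p = 0.261), and the transferrin receptor gene Tfrc (-1.77 ± 0.45, adjusted p = 0.158) lay on opposite sides. T cell receptor signalling genes had 8 of 23 past an unadjusted p of 0.05 upward, where 5.49% of all genes were, and none downward. Cblb, a ubiquitin ligase that restrains signalling, gave 1.48 ± 0.45 (adjusted p = 0.247). The other probe sets of Cblb gave -0.21 and -0.10, and without resting Gli2A Tg replicate 1 it passed at 1.95 (0.0319). The list's median of 0.24 was 0.04 without resting Gli2A Tg replicate 3.

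Cell cycle genes lay below 0 in 23 of 24, with a median of -0.41, and 0 passed with limma, also at an unadjusted p of 0.05. Without resting Gli2A Tg replicate 3 their median was -0.0083, with 12 of 24 below 0, and in the other 11 fits without 1 array it was -0.65 to -0.32. Mki67, a marker of cycling cells, had 9.42, 10.17 and 12.36 in resting Gli2A Tg cells, against 9.52, 9.05 and 8.78 in resting Gli2R Tg cells, and replicate 3 was the highest of the resting Gli2A Tg arrays. Cell cycle genes fell with stimulation in 21 of 24 in Gli2A Tg cells and 15 of 24 in Gli2R Tg cells, where 1 rose. Of all genes, 22.8% fell in Gli2A Tg cells and 22.5% in Gli2R Tg cells. Of 23 ribosome biogenesis genes, 22 rose in Gli2A Tg cells and 23 in Gli2R Tg cells, where 20.2% and 19.8% of all genes rose. Their median response difference was -0.28, with none called. This median was -0.14 without resting Gli2A Tg replicate 3 and -0.14 without stimulated Gli2A Tg replicate 2. The median of interferon response genes was -0.81 to -0.67 under the 3 array scalings and -0.85 to -0.57 without 1 array, and that of glycolysis and hypoxia genes 0.70 to 0.83 and 0.54 to 0.88. With median centring, medians of T helper 1 genes (0.11), Gli target genes (0.06), heat shock genes (0.10) and Hedgehog pathway components (0.03) were above 0. So were those of effector and memory genes (0.11) and of sterol and fatty acid synthesis genes (0.09). All of these were below 0 under both other scalings. The median of all genes was itself 0.08 with median centring, against -0.002 with quantile normalisation and -0.05 with the deposited scaling alone.

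**Figure D5:**
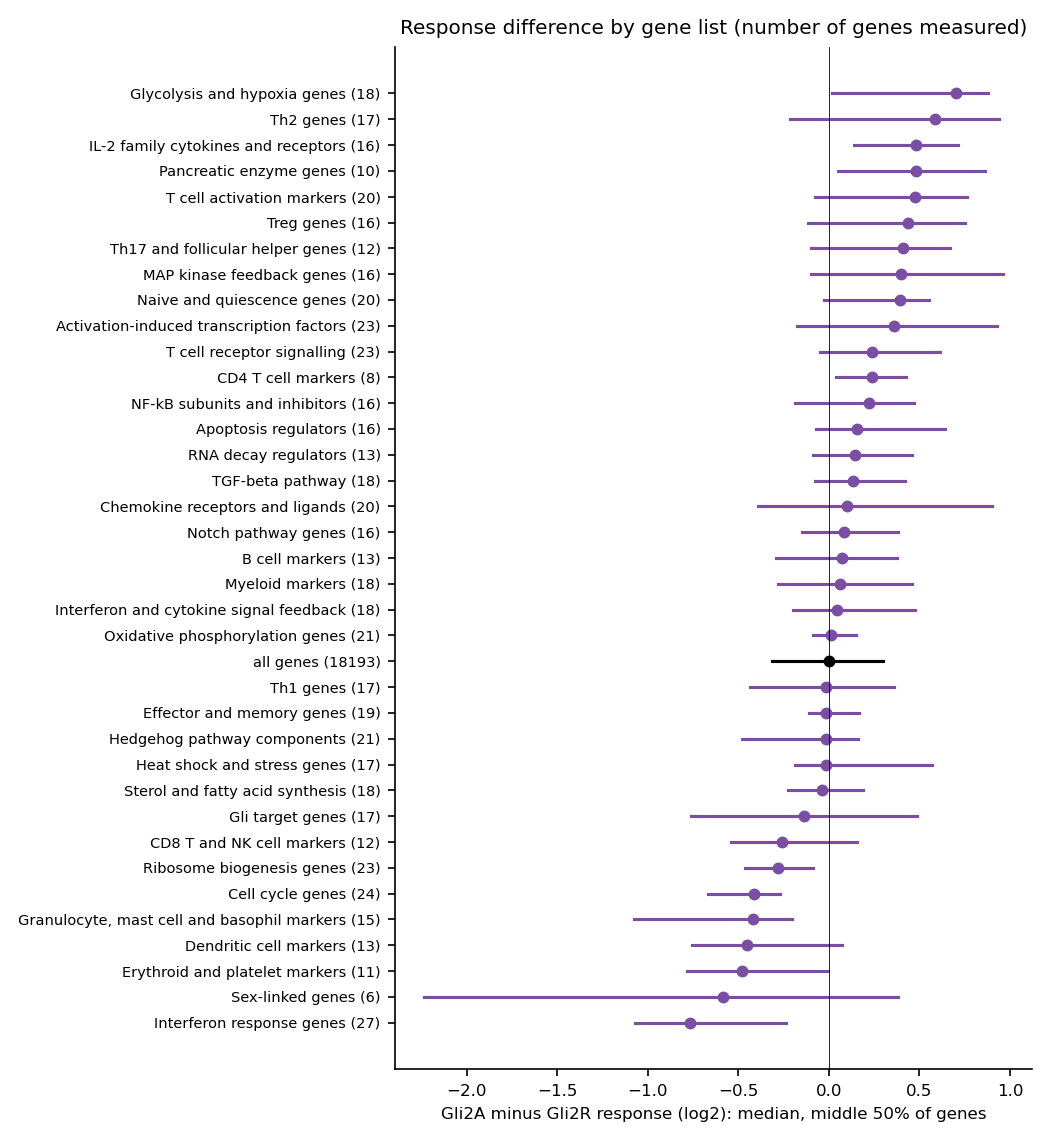
Response difference by gene list on the log2 scale (horizontal axis; points are medians, lines the middle 50% of genes, and brackets give the number measured), with all 18193 genes in black. Glycolysis genes have the highest median, 0.70, and interferon response genes the lowest, -0.77.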

How the data were processed

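Splenic CD4 T cell RNA of 18 samples was hybridised to a 3′ Affymetrix mouse array of 45101 probe sets. Values are linear intensities as deposited, made by the authors with affy per the submitters' processing notes; the version, background correction and summary method are not given in the sources used here. Each deposited array had a 2% trimmed mean of 500. Of the probe sets, 34945 had 1 gene symbol, 932 several, 9160 none and 64 were controls. Here, 16 was added, log2 taken and arrays quantile normalised, and each gene was read by its brightest 1-symbol probe set, giving 18193 genes. Differences on this scale understate changes of dim genes. A group-means model over 6 groups (lmFit, then eBayes, of limma 3.58.1 under R 4.3.3) left 12 residual degrees of freedom, with Benjamini-Hochberg adjustment over all genes and calls at adjusted p under 0.05. The fit was tested on simulated data. Errors of differences are standard errors of the fit, and precision is limited by 3 arrays per group. No sample was dropped or imputed.

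Named genes were all called genes other than clone, predicted-gene and LOC names, up to 3 genes per list with the largest difference, and Ptch1, Gli1, Gli2, Pmepa1, Il2, Ifng, Il4, Hspa1a and Hspa1b. The comparison, members and gene lists were chosen with earlier results of these data known. Same-numbered samples did not deviate together (r from -0.06 to 0.07, with 0 of 18 pairs over 0.1), so replicate numbers were not used as pairs. Promoters are RefSeq windows of GRCm38.p6. Alternatives changed the scaling, pseudocount, dim-gene filter, samples, moderation, weights, probe sets and covariates.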

Additional observations from a re-analysis of the deposited data

Results flagged for a closer look

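The 20 genes whose stimulation response differed between the lines by a test of the difference itself (limma, adjusted p under 0.05) are given by value, as the Gli2A Tg response minus the Gli2R Tg response on the log2 scale. Higher in Gli2A Tg cells were Hspa1b (5.29), Hspa1a (4.83), Il4 (3.40), Csf2 (3.07), Kis2 (2.87) and Ctf1 (1.84). Lower were the antiviral and interferon-related genes Rsad2 (-3.83), Ifit1 (-2.34), Ube2l6 (-2.23) and Slfn8 (-1.50). Also lower were Slc25a37 (-3.22), Cdr2 (-2.64), Apoc1 (-2.51), Abca9 (-2.05), Sdc3 (-1.97), Pmepa1 (-1.95), Abcg3 (-1.89), Prr29 (-1.76), Tubb2a (-1.36) and Myof (-1.36).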

How the results depend on the processing

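The response difference called 20 genes. It called 78 with a pseudocount of 64, 128 among genes above the median level, 12 with the 12 arrays alone, 101 with a variance trend and robust fit, 34 with array weights, 35 over every probe set, 10 with sex pattern and 8 with marker means as covariates, 7 without resting Gli2A Tg replicate 3 and stimulated Gli2A Tg replicate 2 together, and 6 to 34 without 1 array. The stimulated comparison called 42 genes, and under the same settings 103, 121, 22, 137, 132, 45, 4, 1 and 21, and 23 with the mean of probe sets and 19 to 71 without 1 array. The resting comparison called 436, against 930 with a pseudocount of 64, 1007 above the median level, 228 with the 12 arrays alone, 884 with trend and robust fit, 2 with marker means, 179 without both arrays and 154 to 597 without 1. Stimulation called 7812 genes for Gli2A Tg cells and 7703 for Gli2R Tg cells, against 14126 and 13877 over every probe set, 0 and 0 with marker means in limma (1952 and 1950 at an unadjusted p of 0.05), and 7156 to 7891 and 7018 to 7870 without 1 array.

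With the replicate block, the response difference had 17 calls (5 higher and 12 lower), 16 of them among the 20, with the calls of Apoc1, Ctf1, Sdc3 and Tubb2a lost. The block gave 47 calls in stimulated cells, 501 in resting cells, 7875 for Gli2A Tg and 7794 for Gli2R Tg stimulation; the pairing check found no shared deviation of same-numbered samples. No called gene changed sign under any alternative run. Reversed values, of genes that were not called, were Dhcr7 at -0.0088 with marker means, Gli2 at 0.15 and Klra7 at 0.18 with the mean of probe sets, Kdm5d at 0.0064 and Xist at -0.85 with sex pattern, Ncr1 at 0.14 without both arrays, Prss2 at -0.38 and Reg1 at -0.34 with array weights, and, among fits without 1 array, Prss2 (-0.094 to 2.52) and Reg1 (-0.29 to 2.58), lowest without resting Gli2R Tg replicate 3. The sex pattern was set from Xist itself, so the value of Xist under that covariate is no separate result. The means of probe sets took in a second probe set of Gli2 (0.92) and of Klra7 (1.16). The cause of the other reversals was not tested. Signal over background limits Kis2, Ctf1, Csf2, Myof and Abca9, which were dim in some groups. List medians without 1 array were an alternative added after seeing the data.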

Other observations

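Genes of regulatory T cells and of naive cells, described here by values alone, had response differences above 0 more often than below, with 0 called by limma in either list. Of 16 regulatory T cell genes 11 lay above 0 and 4 were higher at an unadjusted p of 0.05, where 5.49% of all genes were. Their median was 0.43. It was 0.16 without resting Gli2R Tg replicate 2 and 0.26 without resting Gli2A Tg replicate 3. It was 0.27 without stimulated Gli2R Tg replicate 3 and 0.28 without resting Gli2R Tg replicate 1. Ctla4, an inhibitory receptor, gave 1.34 ± 0.51 (limma adjusted p = 0.362, and 0.0404 without resting Gli2R Tg replicate 3), Tnfrsf18, a co-stimulatory receptor, 0.79 ± 0.25 (adjusted p = 0.261) and Il10, an inhibitory cytokine, 1.40 ± 0.61 (adjusted p = 0.437). Of 20 naive and quiescence genes 14 lay above 0 and 4 were higher at an unadjusted p of 0.05, where 5.49% of all genes were. Their median of 0.39 was 0.18 without resting Gli2A Tg replicate 3. Ccr7, which guides naive cells to lymph nodes, gave 0.99 ± 0.32 (adjusted p = 0.268). Naive and quiescence genes fell with stimulation in 12 of 20 in Gli2A Tg cells and 14 of 20 in Gli2R Tg cells. Of all genes, 22.8% and 22.5% fell. At rest, 5 of the 20 were called lower in Gli2A Tg than in Gli2R Tg cells, where 0.830% of all genes were.

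Chemokine receptor genes were split, with Cxcr6, a receptor of effector cells, at 1.85 ± 0.47 (limma adjusted p = 0.154) and Ccr3, a receptor of eosinophils, at -1.54 ± 0.51 (adjusted p = 0.289). Smad7, which inhibits TGF-beta receptors, gave 1.32 ± 0.40 (adjusted p = 0.248), on the other side of 0 from Pmepa1. The sum of 10 pancreatic enzyme genes was 6605 to 29269 in resting Gli2A Tg and 2370 to 60703 in resting Gli2R Tg cells, so resting arrays of 1 group differed many-fold, and 427 to 655 in stimulated Gli2A Tg and 525 to 712 in stimulated Gli2R Tg cells. None of these genes is among the 20.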
